A study of Mus musculus with 15 samples.

Results

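The stretch of mouse chromosome 2 that runs from Nup35 to Edn3 was followed in 15 spleen tumours, because the RNA of its genes was low as a block in 1 of them, tumor_36. Its members are all named genes on chromosome 2 whose start lies from Nup35 to Edn3 inclusive. These 881 of the 16277 named genes were read by 9471 of 208397 probesets with a single gene symbol. They are 881 of the 1423 named genes of chromosome 2. The arrays were Affymetrix Mouse Exon 1.0 ST, which read a gene through several probesets, and the deposited value is 1 intensity per probeset and tumour. All 15 tumours form 1 group: spleens with acute promyelocytic leukaemia (APL) from mice of the strain Bl/6 Taconic, with no treatment, transgene, age or genotype named in the labels. No healthy spleen was analysed here, and the labels do not say whether each tumour came from its own animal, so the spread between tumours may be partly technical.

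APL is a leukaemia of cells held at the promyelocyte stage of neutrophil development, in patients and in mouse models usually through a fusion of PML with the retinoic acid receptor alpha. The distal part of mouse chromosome 2 carries Spi1, whose product PU.1 is a transcription factor needed for myeloid differentiation, and it also holds large arrays of olfactory receptor genes, many housekeeping genes and a few imprinted genes, which are transcribed mainly from the copy of 1 parent. Interstitial deletions of chromosome 2 that take in Spi1 are known from mouse models of APL. Arrays of RNA do not count DNA copies, copy number was not analysed here, and the cause of the low level in tumor_36 was not tested.

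Promoters are shown for 4 members around which the results turn: Zc3h15 and Pfdn4, which were low in tumor_36 beyond the 2 ends of the low interval found there; Serinc3, the member whose probesets were low together most completely; and Aurka, which stands just past Pfdn4 and was not low. Each is the 250 bases before the gene's start, 5′ to 3′ on the gene's strand, from RefSeq on build GRCm38.p6, and capitals mark GGGCGG (a GC box, searched on both strands) or GAGGAA (a PU.1-type core, searched on both strands).
Zc3h15, chr2:83644328-83644577, plus strand: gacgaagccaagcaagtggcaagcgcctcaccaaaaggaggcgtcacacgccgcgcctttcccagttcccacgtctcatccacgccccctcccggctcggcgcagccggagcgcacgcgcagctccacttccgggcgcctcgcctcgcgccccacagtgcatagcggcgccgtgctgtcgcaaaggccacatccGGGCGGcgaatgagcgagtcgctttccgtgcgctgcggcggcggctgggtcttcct
Serinc3, chr2:163645144-163645393, minus strand: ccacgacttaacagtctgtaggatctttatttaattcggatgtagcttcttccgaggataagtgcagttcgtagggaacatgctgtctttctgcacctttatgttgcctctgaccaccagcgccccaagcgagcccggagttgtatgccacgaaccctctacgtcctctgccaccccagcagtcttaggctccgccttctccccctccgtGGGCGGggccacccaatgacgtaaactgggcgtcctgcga
Pfdn4, chr2:170496178-170496427, plus strand: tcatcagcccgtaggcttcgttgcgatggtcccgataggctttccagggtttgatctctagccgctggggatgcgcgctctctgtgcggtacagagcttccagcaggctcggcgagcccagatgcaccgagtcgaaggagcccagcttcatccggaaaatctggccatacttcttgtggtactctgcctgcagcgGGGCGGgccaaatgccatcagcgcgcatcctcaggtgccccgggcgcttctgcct
Aurka, chr2:172370571-172370820, minus strand: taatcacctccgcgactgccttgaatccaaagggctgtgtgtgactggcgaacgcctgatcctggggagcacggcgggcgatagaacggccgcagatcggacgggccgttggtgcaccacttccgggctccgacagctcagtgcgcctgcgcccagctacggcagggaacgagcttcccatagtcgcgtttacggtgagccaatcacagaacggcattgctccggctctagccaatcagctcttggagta
A GC box was in the windows of Zc3h15, Serinc3 and Pfdn4, with 1 match each, and in that of Aurka there was none. GAGGAA was in none of these 4 windows. All 4 were rich in GC, at 70%, 56%, 62% and 61.6% in the order above, and held 34, 15, 19 and 23 CpG dinucleotides.

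All 8 neutrophil granule markers were detected, as were 9766 of all 16277 named genes. Mpo (myeloperoxidase) had a mean of 12.91 and S100a8 one of 12.84 on the log2 intensity scale. With no healthy spleen analysed, these levels do not show the labelled disease. The median deposited intensity per array lay between 108 and 129, and no 2 arrays were identical. The arrays of tumor_9509 and tumor_9514 had the lowest of those medians, and their closest array was each other, at r = 0.964 across genes. Of 8 other marker lists for cells of the spleen, 6 had medians in tumor_36 within the range of the other tumours, and those of megakaryocytes (-0.35) and of eosinophils, basophils and mast cells (-1.56) were the lowest of 15; their part in the values of the segment was not tested. The array of tumor_36 was not set apart, since its closest array, that of tumor_9495, correlated with it at 0.972.

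Values are deviations in log2 intensity: a probeset's value minus its median over the 15 tumours, minus the tumour's median over all named genes, and a gene takes the median over its probesets. A gene counted as detected where its mean level over the tumours was above 6.41, the 40th percentile over named genes, which 425 members did and 456 did not. In tumor_36 the median of the 425 detected members was -0.33, a level 0.798 of the 15-tumour median, with quartiles of -0.60 and -0.06. In the other 14 tumours the same median ran from -0.11 to 0.10, with an SD of 0.058. Tumours carry numbers of 2 or 4 digits, a possible batch by name only, and against the median of the 5 with 2 digits, tumor_36 included, the segment stood at -0.27. The segment was chosen by the low log2 intensities of its genes in tumor_36, so these values describe it and were not tested. In bulk tissue, fewer cells of a type and less RNA per cell cannot be told apart.

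In tumor_36, 144 of the 425 detected members (33.9%) lay below -0.5, where 3.57% of all 9766 detected genes did so. It was the lowest of the 15 tumours for 137 members (32.2%), against a background of 4.8%. Another 70 members (16.5%) were not below 0, against 52.7% of all detected genes. On chromosome 2 outside the stretch the low level was not seen. The 300 detected genes before Nup35 and the 38 after Edn3 both had a median of 0. Of those 338 genes, 0.888% lay below -0.5. Medians of the other 19 chromosomes in tumor_36 ran from -0.10 to 0.08. The lowest was that of chromosome 15, where 6.64% of 422 detected genes lay below -0.5. Divided into 3 runs of nearly equal size, the segment had medians of -0.38 from Nup35 to Ctdspl2, -0.38 from Eif3j1 to Nol4l and -0.24 from Commd7 to Edn3.

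**Figure D1:**
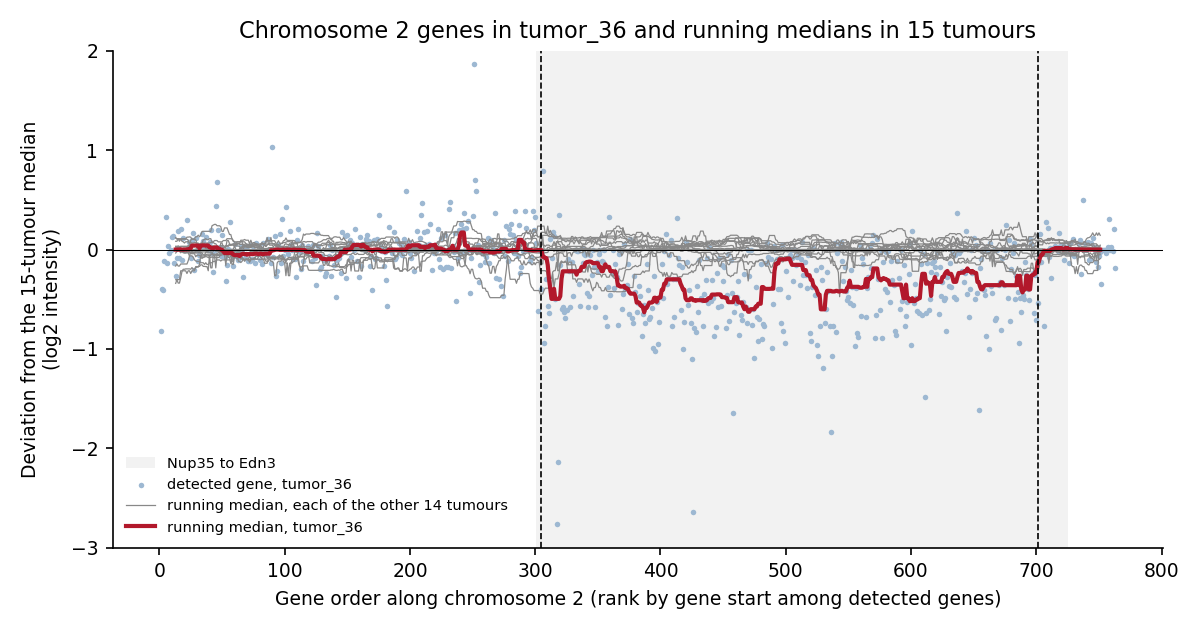
Deviation in tumor_36 (points, log2 intensity) of each detected gene of chromosome 2 by its order along the chromosome, with running medians over 25 genes for tumor_36 (red) and each of the other 14 tumours (grey); the shading marks Nup35 to Edn3 and the dashed lines the interval Tfpi to Dpm1. The red line leaves 0 at the left edge of the shading, reaches -0.63 and is back at 0 before the right edge.

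The genes at the named ends were themselves not low. Nup35, a nucleoporin gene, stood at 0.07 in tumor_36 and Edn3, which encodes endothelin 3, at 0.04. Just outside, Dusp19 stood at 0.32 and Gm6710 at -0.13. A search for the single interval of detected chromosome 2 genes that best separated 2 levels placed the edges in tumor_36 at Tfpi and Dpm1. This interval held 397 genes with a median of -0.37, against 0 over the 366 detected genes of chromosome 2 outside it. The data therefore go against the label at both ends: 4 detected members before Tfpi had a median of 0 and 24 after Dpm1 one of 0.01.

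The proximal edge was not a clean step. Zc3h15, a zinc finger protein gene next to Nup35, had a log2 level of 8.82 in tumor_36, against a lowest level of 8.93 (tumor_9500), a median of 9.62 and a highest of 9.99 (tumor_29) in the other 14. Its deviation of -0.62 was the lowest of 15, but by a small margin, since tumor_9500 stood at -0.60. The following genes Itgav, an integrin subunit, and Calcrl, an adrenomedullin receptor subunit, were both at 0. Tfpi, an inhibitor of tissue factor, stood at -0.39, within a range of -1.95 to 0.72 in the other tumours. Ctnnd1, which encodes p120 catenin, was the highest member of all at 0.79, also within its range of -0.81 to 0.94. From Selenoh, a selenoprotein gene, 5 genes in a row were below 0. These were Selenoh at -0.94, Tmx2 at -0.77, Med19 at -0.29, Zdhhc5 at -0.57 and Clp1 at -0.64. Of these, Tmx2, Med19 and Zdhhc5 lay within their ranges in the other tumours. The next detected genes were Ypel4 at 0.11, Smtnl1 at -0.09, Slc43a1 at 0.17 and Rtn4rl2 at 0.14.

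Selenoh had a log2 level of 10.04 in tumor_36 and of 10.36 (tumor_9509), 11.06 and 11.29 (tumor_9508) as the lowest, median and highest in the other 14. In Selenoh, as in Zc3h15, tumor_36 lay below all other tumours, which it did in none of the 3 genes between Zc3h15 and Ctnnd1. A least-squares search put the proximal edge at Selenoh too, with the distal edge again at Dpm1. Between Nup35 and Selenoh the edge rests on 5 detected genes, of which Zc3h15 and Tfpi were below 0.

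At the distal end, Adnp, a homeodomain protein of chromatin, stood at -0.71 and its neighbour Dpm1, a mannosyltransferase subunit, at -0.53. Adnp was below all other tumours, whereas Dpm1, read by 3 probesets, was not. The next 4 detected genes were near 0: Nfatc2 at -0.05, Sall4 at 0.16, Zfp64 at -0.13 and Tshz2 at -0.01. All 4 were dim, with mean levels of 6.51 to 6.96.

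Pfdn4, a subunit of the prefoldin chaperone, came after these 4 and stood at -0.77, below its range of -0.41 to 0.51 in the other tumours. Its log2 level was 6.58 in tumor_36, where the other 14 had a lowest of 6.56 (tumor_9504), a median of 7.49 and a highest of 8.03 (tumor_9509), so on the level scale tumor_36 was not the lowest. The 8 probesets of Pfdn4 were uneven, from -2.14 to 0.24, and the brightest, at a median level of 12.35, stood at 0. Past Pfdn4 no low gene followed. The 19 detected members from Cbln4 to Edn3 had a median of 0.02, none was below -0.5 and 13 (68.4%) were not below 0. Of all detected genes in tumor_36, 3.57% were below -0.5 and 52.7% not below 0. Aurka, a mitotic kinase, had a log2 level of 8.70 in tumor_36, above the median of 8.56 in the other tumours, and deviated by 0.22. Fam210b, its neighbour, stood at 0.28.

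The 12 lowest detected members with at least 3 probesets in tumor_36 all lay inside the interval. Serinc3, a membrane protein gene of the serine incorporator family, had a log2 level of 10.13 in tumor_36, and 11.38 (tumor_9520), 11.72 and 11.94 (tumor_33) as the lowest, median and highest in the other 14. Its deviation was -1.61, or 0.328 of the 15-tumour median, and tumor_36 was the lowest tumour in 22 of its 22 probesets. The other tumours kept within -0.14 to 0.22 (SD 0.11, n = 14), the smallest spread among the 12 lowest members.

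Ganc, which encodes a neutral alpha-glucosidase, had a log2 level of 7.07 in tumor_36, against 8.39 (tumor_9509), 8.80 and 9.85 (tumor_9529) in the others. Its deviation of -2.64 rests on 3 probesets, of which the least low was at -1.57. Dtd1, a tRNA proofreading enzyme, was at 7.58 in tumor_36, against 8.42 (tumor_9514), 9.17 and 9.37 (tumor_26). It deviated by -1.83, with single probesets from -2.68 to -0.14. In both genes tumor_36 lay below all other tumours.

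Bub1, a kinase of the spindle checkpoint, had a log2 level of 6.41 in tumor_36, against 7.0 (tumor_9504), 7.43 and 7.78 (tumor_9508) in the others. It was below 0 in 28 of 28 probesets. Snx5, a sorting nexin of endosomes, deviated by -1.19 and Tmem87a, a Golgi membrane protein, by -1.10, each below the other 14 tumours. Ndufaf5, an assembly factor of respiratory complex I, stood at -1.07 and Spred1, an inhibitor of Ras signalling, at -1.02, again below the others. Slc24a3, a cation exchanger, stood at -1.07 and was only the second lowest, as the range elsewhere began at -1.42.

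**Figure D2:**
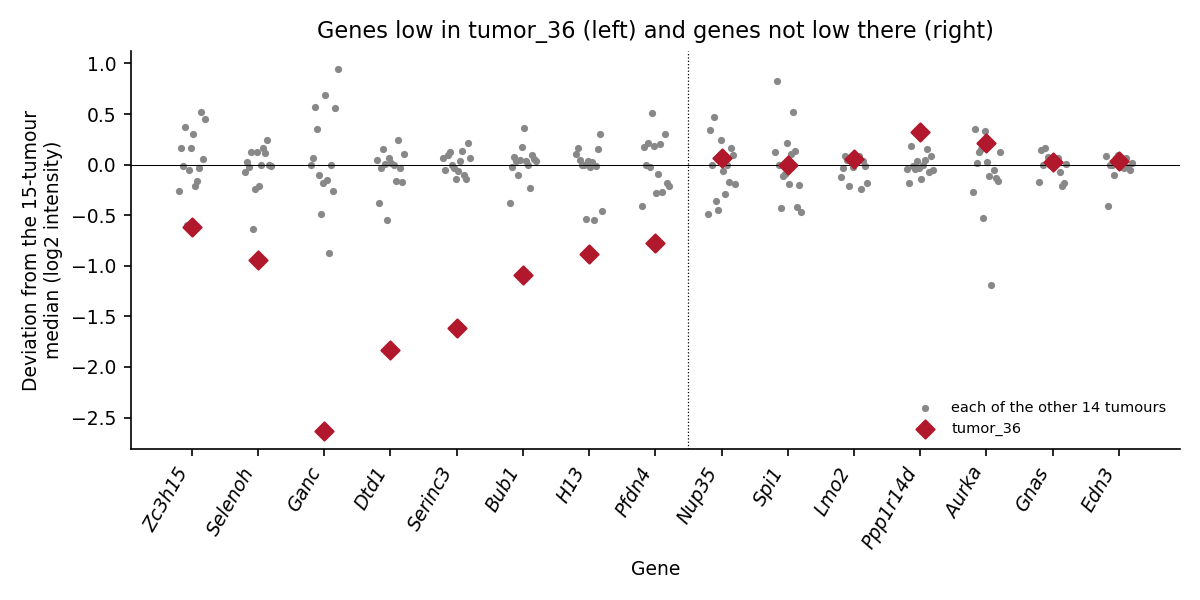
Deviation from the 15-tumour median (log2 intensity) of 15 members in tumor_36 (red diamonds) and in each of the other 14 tumours (grey points). The 8 genes on the left, from Zc3h15 to Pfdn4, lie below all other tumours in tumor_36, by the most in Ganc; the 7 on the right, among them Spi1 and Lmo2, do not.

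The other 3 of the 12 lowest members are genes of eosinophils, basophils or mast cells. Prg2 and Prg3, which encode major basic proteins of eosinophil granules, stood at -2.76 and -2.14, and Hdc, the enzyme that makes histamine, at -1.65. These genes also varied widely elsewhere, with SDs of 0.98, 1.56 and 0.97 over the other 14 tumours, and Prg2 was below -0.5 in 4 of those. The whole marker list for these cells, 6 genes of which all 6 were detected, had a median of -1.56 in tumor_36, against -0.92 to 1.47 in the others. Of its 3 genes outside the segment, Cpa3 and Mcpt8, mast cell and basophil proteases, stood at -1.29 and -1.47, and Epx, eosinophil peroxidase, at -0.07. The part of these cells in the values of Prg2, Prg3 and Hdc was not tested. Without the 3 genes the segment's median was -0.32 and 141 members were below -0.5.

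The depth of the low level went with how bright a gene was. With the interval's genes in 4 groups by mean level, the dimmest (100 genes at 6.42 to 6.94) had a median of -0.09 in tumor_36 and the next (99 genes) one of -0.21. The third group, at 7.59 to 8.34, had a median of -0.48 and the brightest, at 8.34 to 12.98, one of -0.60, a level 0.660 of the 15-tumour median. The share below -0.5 was 12%, 24.2%, 45.5% and 61.6% from dim to bright. Detected genes of the same levels outside the segment gave 1.2%, 1.86%, 2.32% and 3.17%.

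Across the 397 genes, deviation and mean level correlated at a Pearson r of -0.44 and a Spearman rho of -0.54, as a description across genes that share 1 array and are not independent. Among single probesets the low level also went with brightness, but not up to the top: of 626 probesets with a median level of 9 to 10, 92.0% were below 0 in tumor_36 and their median was -0.64, whereas 750 probesets under 6 had a median of -0.21. The 564 probesets above 10 had a median of -0.57, with 58.3% below -0.5, against 63.3% of those at 9 to 10. In the other 14 tumours the median of the probesets at 9 to 10 ran from -0.35 to 0.13. All these probesets read genes of the interval, and the same shares elsewhere were not computed. A dim probeset carries more background signal, which does not scale with the RNA, and its part in the gradient was not tested.

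**Figure D3:**
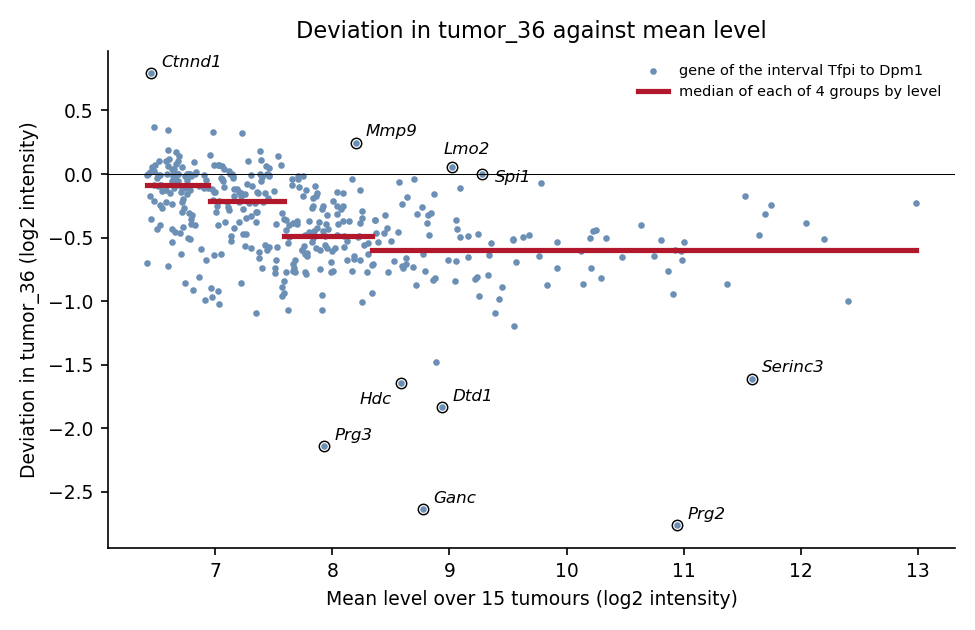
Deviation in tumor_36 against mean level over the 15 tumours (both log2 intensity) for the 397 detected genes from Tfpi to Dpm1; red bars give the median of each of 4 groups by level, -0.09, -0.21, -0.48 and -0.60 from dim to bright. Lmo2 and Spi1 lie at 0 or just above among genes of their level, and Prg2, Ganc and Prg3 lie lowest.

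Few of the brighter genes were not low. Of 392 interval genes with at least 3 probesets, 53 were not below 0 in tumor_36, and 34 of these had a mean level of 7 or less. Above 7 there were 282 genes, of which 19 were not below 0: Rtn4rl2, Spi1, Ldlrad3, Lmo2, Ccdc32, Ppp1r14d, Il1b, Oxt, Insm1, Sstr4, Snph, Trib3, Map1lc3a, Trp53inp2, Sdc4, Snx21, Zfp335, Mmp9 and Tmem189. Of all detected genes of any level, 52.7% were not below 0 in tumor_36, and the share above 7 alone was not computed. Spi1, Ldlrad3, Snx21 and Zfp335 stood at exactly 0. The limit of 7 was set after the values were seen. Only Spi1 and Lmo2 among these 19 had mean levels in the brightest of the 4 groups, where these 2 of 99 genes were not below 0.

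Lmo2, a transcriptional cofactor of blood stem and progenitor cells, had a log2 level of 8.98 in tumor_36, against 8.74 (tumor_9529), 9.04 and 9.16 (tumor_9523) as the lowest, median and highest in the other 14. Its deviation was 0.06, within a range of -0.25 to 0.09 (SD 0.11, n = 14). All 8 of its probesets lay between -0.03 and 0.14, and over the alternatives of processing the gene's value ran from -0.04 to 0.08. The detected genes on either side were low, Caprin1, an RNA-binding protein gene, at -0.44 and Fbxo3, a ubiquitin ligase subunit, at -0.40.

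Spi1 had a log2 level of 9.31 in tumor_36, against 8.61 (tumor_29), 9.36 and 10.19 (tumor_31) in the others. Its deviation was 0.00, the eighth lowest of 15 and so the middle tumour, in a wide range of -0.47 (tumor_9529) to 0.83 (tumor_31), with an SD of 0.36 (n = 14). Its 7 probesets ran from -0.44 to 0.14. Over the alternatives of processing it ran from -0.11 to 0. Of the 4 detected genes on each side, Celf1 at -0.57, Psmc3, a proteasome subunit, at -0.47, Acp2 at -0.35 and Ddb2, a DNA damage sensor, at -0.57 were lower, whereas the dim genes Rapsn, Mybpc3 and Madd lay between -0.13 and -0.01. Slc39a13 stood at -0.22. Spi1 was the 1 gene of these 9 that was not below 0, but only by standing at exactly 0. Mybpc3 at -0.01 and Madd at -0.02 lay close to it. Under some alternatives of processing Spi1 was itself below 0.

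Genes of the PU.1 programme, a list of myeloid genes known to respond to this factor, were not low in tumor_36. None of the 21 measured members lies in the segment. Their median was 0.07, within -0.34 to 0.31 in the other tumours, with 0 members below -0.5 and 2 above 0.5, against backgrounds of 3.57% and 2.37%. Mpo and Ctsg, granule protein genes, stood at 0.06 each and Tyrobp, a signalling adaptor, at -0.04. Cybb, an NADPH oxidase subunit, stood at 1.75 and was the highest of 15 there, while Cd68 stood at -0.41.

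Of the other members that were not low, Ppp1r14d, a phosphatase inhibitor gene, was the clearest above the rest. It had a log2 level of 7.52 in tumor_36, against 6.92 (tumor_29), 7.21 and 7.40 (tumor_9514), and its deviation of 0.32 lay above the range of -0.18 to 0.18. Its 8 probesets were uneven, from -0.29 to 1.64. Snhg11, a host gene of small nucleolar RNAs, was also highest of 15 at 0.37 but dim, at a mean level of 6.48. Mmp9, a neutrophil gelatinase, stood at 0.25 in a range of -1.61 to 2.62, and Il1b, an inflammatory cytokine, at 0.06 in one of -1.0 to 3.41, so their place in tumor_36 is small beside their spread. The rest of the 12 highest were Olfr1010, Iftap, Fam210b, Aurka, Emilin3, Trp53inp2, Slc43a1 and Stx16, between 0.16 and 0.35.

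The lists by role differed in brightness as well as in level, and no difference between lists was tested. For comparison, of all 425 detected members 83.5% were below 0 and 33.9% below -0.5 in tumor_36. The list for protein synthesis, splicing and protein turnover had 23 detected members, all 23 below 0 in tumor_36, where 47.3% of all detected genes were, with a median of -0.68 and 18 (78.3%) below -0.5, at a background of 3.57%. It was also bright, with a median mean level of 9.42 against 7.59 over all detected members, and the brightest of the 4 groups by level had a median of -0.60 and 61.6% below -0.5 whatever the role. Nop10, part of the box H/ACA ribonucleoprotein, stood at -0.87, and Pdia3, a chaperone of the endoplasmic reticulum, at -0.54, both below all other tumours. Nop56, a nucleolar protein, was the lowest of the list at -0.99, within a range of -1.25 to 0.42 elsewhere. Dynlrb1, a dynein light chain, was the least low at -0.24. In the other tumours the median of the list ran from -0.37 to 0.14.

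Of 21 detected cell division genes, with a median mean level of 8.01, 20 (95.2%) were below 0 in tumor_36, at a background of 47.3%, and 10 (47.6%) were below -0.5, at one of 3.57%. In 12 (57.1%) tumor_36 was lowest of 15, against 4.8% of all detected genes and 32.2% of the detected members. Their median was -0.48, against -0.29 to 0.23 elsewhere. Ube2c, the ubiquitin-conjugating enzyme of the anaphase-promoting complex, stood at -0.69, and Mapre1, a microtubule end-binding protein, at -0.82, both below the other tumours. Pcna, the replication clamp, was bright at a mean of 12.04 and stood at -0.39, within a range of -0.49 to 0.15. Aurka, past the distal edge, was the 1 member not below 0.

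The list of apoptosis, growth control and cancer genes held 16 detected members, 15 of them (93.8%) below 0, at a background of 47.3%. Its median of -0.36 and its 4 genes (25%) below -0.5, at a background of 3.57%, lay near the segment's own -0.33 and 33.9%. Stk4, a kinase of the Hippo pathway, stood at -0.87, below its range of -0.30 to 0.29. Thbs1, the thrombospondin gene, was lowest at -0.95 but varied from -1.14 to 1.8 elsewhere, Ncoa6 stood at -0.54 and Ext2 at -0.12. Trp53inp2, an autophagy protein gene, was the 1 member not below 0, at 0.18.

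The 29 detected myeloid and immune genes had a median of -0.11 in tumor_36, against -0.10 to 0.20 in the other tumours, and a median mean level of 7.84. Of these, 6 (20.7%) were below -0.5 and 10 (34.5%) not below 0, where all detected genes gave 3.57% and 52.7% and the segment as a whole 33.9% and 16.5%. Slpi, a leukocyte protease inhibitor, had a log2 level of 10.74 in tumor_36 and 11.03 (tumor_9508), 12.70 and 13.31 (tumor_9509) in the others, and deviated by -1.0. Cst3, the cystatin C gene, stood at -0.51, below its range of -0.42 to 0.13, and B2m, the light chain of MHC class I, at -0.23, within its range. Hdc and Mmp9, described above, were the lowest and highest members.

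The 5 detected imprinted genes did not share 1 level. H13, which encodes signal peptide peptidase, had a log2 level of 8.49 in tumor_36, against 8.94 (tumor_9509), 9.62 and 10.03 (tumor_33), and deviated by -0.89, below the other 14. Blcap stood at -0.37, Gatm, an enzyme of creatine synthesis, at -0.16 and Nnat, the neuronatin gene within an intron of Blcap, at -0.14, all 3 within their ranges. Gnas, which encodes a G protein subunit, lies past the distal edge and stood at 0.03. Their median of -0.16 was the second lowest of 15, and Mcts2 was measured but not detected. Blcap and Nnat overlap in the genome, and how their probesets treat strand was not given in the sources used here.

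The 456 members below the detection level showed no shift. Their median in tumor_36 was 0 and 3.73% of them were below -0.5. Olfactory receptor genes made up 214 of them, out of 216 in the segment, and these receptors are normally transcribed in the nose. A value near 0 for a gene at background does not show that its level was kept.

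None of the other 14 tumours had a level of the whole segment as low as tumor_36. Their segment medians were lowest in tumor_9509 at -0.11 and tumor_9514 at -0.09, and these arrays also had medians of -0.15 and -0.12 over all detected genes outside it. In tumor_9509, 93 members (21.9%) lay below -0.5, at a background of 22.2%, and in tumor_9514, 96 members (22.6%), at a background of 23.5%. Without these 2 arrays the SD of the medians was 0.036 and the lowest was that of tumor_9504. At the upper end, tumor_31 stood at 0.10, tumor_9492 at 0.08 and tumor_9523 at 0.07, while their detected genes outside the segment stood at 0.04, 0.01 and 0.01. In running medians over 25 genes, tumor_36 was lowest of 15 in 315 of the 373 windows inside its interval. These windows overlap, and the interval was itself found from the low values of tumor_36, so the count only describes it. Windows outside the segment were not counted.

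**Figure D4:**
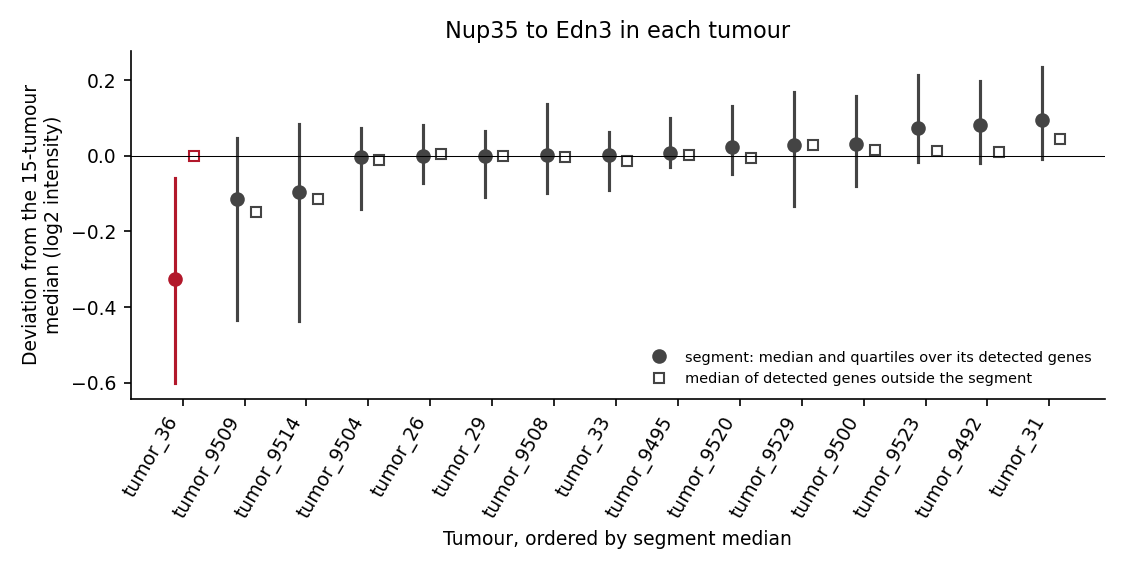
Median (filled circles) and quartiles (lines) of the deviation of the 425 detected members in each tumour, and the median of all detected genes outside the segment (open squares), in log2 intensity, ordered by segment median. tumor_36 lies at -0.33 with its outside genes at 0; tumor_9509 and tumor_9514 lie at -0.11 and -0.09 with outside genes as low.

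A second, shallower low stretch was seen in tumor_9500. The same interval search, run in each tumour, placed its edges there at Ube2e3 and Kif18a by both criteria. The interval held 84 detected genes, 81 of them members, with a median of -0.22 against 0.06 over the rest of chromosome 2. In it 73 genes (86.9%) were below 0, where 35.6% of all detected genes in that tumour were, and 19 (22.6%) below -0.5, at a background of 1.12%. Its 42 brighter genes had a median of -0.37. The 25 detected genes on each side had medians of 0.00 before it and 0 after it, and the other 344 members stood at 0.07. A search of this kind always returns an interval, and no test was made of it.

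Mtch2, a mitochondrial carrier homologue, was the lowest gene of that stretch, at -0.79 in tumor_9500 and -0.69 in tumor_36, while the other 13 tumours were all above both. Kif18a, a mitotic kinesin, stood at -0.62 in tumor_9500 and -0.63 in tumor_36. Ube2e3, a ubiquitin-conjugating enzyme, stood at -0.65 and Dusp19, a phosphatase gene, at -0.61 in tumor_9500, where tumor_36 was at 0.39 and 0.32. With the detection filter used here, the stretch thus began before Nup35 in tumor_9500, and after it in tumor_36. With no filter on dim genes, the interval found in tumor_9500 ran instead from Olfr140 to Olfr1276, 114 genes at a median of -0.17. Spi1, inside both, stood at -0.11 in tumor_9500 and Lmo2 at -0.21, the second lowest of 15.

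Over the 84 genes from Ube2e3 to Kif18a, tumor_36 had a median of -0.22, tumor_9509 one of -0.36 and tumor_9514 one of -0.17. In tumor_9509 the median was thus lower than in tumor_9500, and 30 genes (35.7%) were below -0.5, at a background of 22.2%. In tumor_9514, 19 genes (22.6%) were, at one of 23.5%. The values of tumor_9509 and tumor_9514 stand beside low medians outside the segment, and the interval found in tumor_9509 ran from Ifih1 to BC052040, at -0.37 against -0.10 over the rest of chromosome 2. The other 11 tumours had medians between 0.00 and 0.14.

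**Figure D5:**
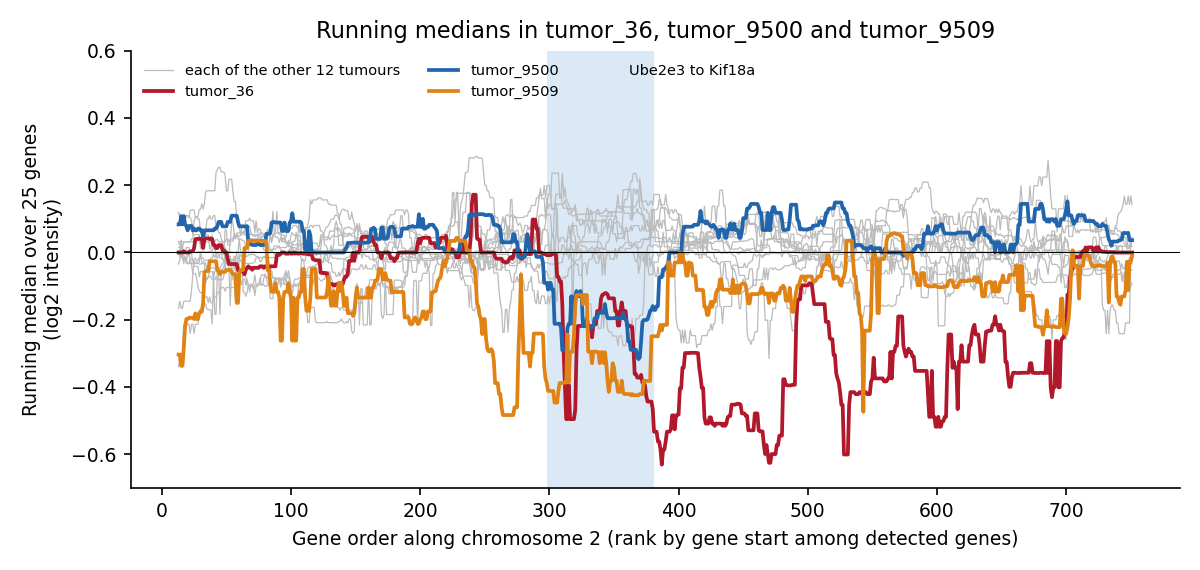
Running medians over 25 detected genes of chromosome 2 (log2 intensity) in tumor_36 (red), tumor_9500 (blue), tumor_9509 (orange) and each of the other 12 tumours (grey), by gene order; the shading marks Ube2e3 to Kif18a. The blue line reaches -0.32 within the shading and lies near or above 0 elsewhere in the segment; the orange line is low there and in other places.

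Single members varied far more between the other tumours than the segment did. The largest SDs over the 14 were 1.57 in AA467197, 1.56 in Prg3 and 1.19 in Mmp9. AA467197, known in mouse as Nmes1, had log2 levels from 5.82 (tumor_9508) to 10.57 (tumor_9509), with a median of 7.40, and was above 2 in deviation in tumor_31, tumor_9500, tumor_9509 and tumor_9514. Mmp9 ran from 6.49 (tumor_9504) to 10.76 (tumor_31), with a median of 8.03. Both were near the middle in tumor_36, at -0.32 and 0.25.

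A short run past the distal edge was low in tumor_9509 and tumor_9514, whose arrays were also low in many genes elsewhere. Of all detected genes, 22.2% lay below -0.5 in tumor_9509 and 23.5% in tumor_9514. Whether the run stood apart from this background was not tested. Aurka, Cstf1, a cleavage stimulation factor subunit, and Rtf2, a replication termination factor, are consecutive detected members, and in tumor_9514 they stood at -1.19, -0.76 and -1.13. In tumor_9509 they stood at -0.53, -1.01 and -0.48. In tumor_36 the same genes were at 0.22, -0.08 and 0.02, and these 3 genes were singled out after their values were seen.

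RefSeq held a promoter for 740 of the 881 members. GGGCGG was in 57.5% of the 365 windows of detected members and in 20.5% of the 375 of members not detected, against 32.9% of 27025 first listed promoters in all. Among brighter detected members, 60.2% of those below -0.5 in tumor_36 held it and 60.7% of the rest. GAGGAA was in 19.4% and 22.5% of the same brighter sets, against 23.1% of all promoters. Without regard to brightness it was in 17.1% of the 129 windows of members below -0.5 and in 24% of the 50 of members not below 0. These shares describe letters in a window and say nothing of binding.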

How the data were processed

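Total RNA of 15 spleens was amplified from 20 ng and read on exon arrays, per the labels' protocols. The values the authors deposited are intensities, 1 for each probeset of each array, from 2.38 to 19380.5, a linear scale settled from the values; RMA and build mm9 are named, without version, in the submitters' processing notes. Scanner files were not analysed here. The log2 scale used in the text was computed here from those deposited intensities. The platform annotation gave a single gene symbol for 208397 of 229581 probesets, several for 3965 and none for 17219, and only single ones entered. Among the 16299 symbols, 14132 stood unchanged in the RefSeq table of GRCm38.p6, 2124 were renamed through it and 43 kept; it gave names and gene order, and no coordinates were converted.

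The members and lists were chosen with earlier results of these data known, so no value is independent support. Lists came from general knowledge of the genes. Tumour numbers are names in the labels, and replicates were numbered in accession order. With 1 group, and tumor_36 chosen for its values, no test was made. Named were Spi1, Nup35 and Edn3; the 5 detected genes with at least 3 probesets on each side of each end; the 12 lowest and 12 highest such members in tumor_36; per list the 3 brightest detected members and those with the lowest and highest deviation; the imprinted genes; and the 3 members with the largest SD elsewhere. Others were named after their values were seen. Edges minimise the summed absolute deviation from the medians inside and outside 1 interval. Deviations and edges were tested on simulated data. Alternatives varied the filter, probesets, gene summary, normalization, reference tumours and edge search, and some members were left out. The number of arrays limits the precision. Software was Python 3.11.15, numpy 2.4.6, pandas 2.3.3, scipy 1.17.1 and matplotlib 3.10.9.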

Additional observations from a re-analysis of the deposited data

How the results depend on the processing

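Over the alternatives, tumor_36 had the lowest segment median of the 15 tumours in each, and the segment median stayed below 0. Genes near 0 changed sign: Lmo2 was -0.04 and Wt1 -0.10 with gene levels taken first, and Gnas -0.01 and Wt1 -0.02 with the mean over probesets, from 0.06, 0.10 and 0.03 for Lmo2, Wt1 and Gnas. Spi1, at 0, went to -0.07 with the mean over probesets and to -0.11 with quantile normalized arrays. Against the median of the 14 other tumours it was -0.03. The segment median of -0.33 was -0.11 with no filter on dim genes, -0.48 with a 60th percentile filter and -0.50 over the brighter members; the 70 members not below 0 were 308, 23 and 10. The proximal edge, Tfpi as gene 496 of 1423, moved to gene 688 (Olfr1260) with no filter, to gene 498 (Selenoh) with the 60th percentile filter and with least squares, and to gene 509 (Slc43a3) against the 5 tumours with a 2-digit number. The distal edge, gene 1334, moved to 1343 (Pfdn4) with the 60th percentile filter and to 1335 (Nfatc2) with the mean over probesets or with gene levels taken first. The SD of the other medians, 0.058, was 0.015 with no filter, 0.103 with the 60th percentile filter, 0.038 with quantile normalized arrays and 0.036 when tumor_9509 and tumor_9514 were left out. The imprinted median of -0.16 was -0.26 under both filters, and that of Ube2e3 to Kif18a in tumor_9500 was -0.0699 with no filter. The interval found in tumor_9500 then ran from Olfr140 to Olfr1276, and with the 60th percentile filter from Ube2e3 to Arl14ep. With no filter and with the 60th percentile the genes counted differ; for the rest the cause was not tested. Another 82 values of these results showed no such move, nor did 180 of those of single genes, while 10 of the latter moved by more than their SD over the other tumours. The alternatives over some of the members, the arrays left out of the SD and the tumor_9500 stretch were chosen after seeing the data. No paired analysis was possible because there was 1 group, whose replicate numbers follow accession order. Signal near background limits the members below 6.41, for which no shift could be read.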

Other observations

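Iftap, an intraflagellar transport gene inside the segment, split the tumours widely: its log2 level was 4.83 in tumor_9504, 5.22 in tumor_33, 5.39 in tumor_26, 5.65 in tumor_9495, 5.97 in tumor_9520, 6.19 in tumor_9508 and 6.66 in tumor_9500. In the other 8 tumours it lay between 7.62 and 8.68, and tumor_36 stood at 7.87. Gatm, the imprinted gene of creatine synthesis, was at 6.81 in tumor_9514 and at most 9.92, in tumor_9492.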
